A study of Homo sapiens with 15 samples.

Results

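The integrated stress response lowers general translation while raising the translation of ATF4, a bZIP transcription factor that activates genes for amino acid synthesis, amino acid import, the charging of tRNAs and stress control. ATF4 is controlled largely at the level of its protein, so that its messenger RNA is only one part of its activity. It binds as a heterodimer, often with a C/EBP factor, at composite elements in the promoters of its targets, and prostate cancer cells are known to use the pathway to keep up growth and protein synthesis.

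The ATF4 stress and amino acid supply genes described here are a list of 35 genes of the 58381 in the count files, picked by symbol for their place in this pathway, with earlier results of these data known. All 35 were found by symbol and all 35 passed the filter on low counts that left 19621 genes to be tested. ALDH1L2 passed through the libraries of VCaP-T alone, with 32 to 34 counts there and 1 to 7 in every other library, so it had to differ from VCaP-T, and counts that include it are also given without it. They fall into 7 transcription factors and stress regulators (ATF4, ATF3, DDIT3, CEBPB, CEBPG, NUPR1 and TRIB3), 4 stress effectors (DDIT4, SESN2, PPP1R15A and CHAC1), 6 enzymes of serine synthesis and one-carbon metabolism (PHGDH, PSAT1, PSPH, SHMT2, MTHFD2 and ALDH1L2), 5 other enzymes of amino acid metabolism (ASNS, PYCR1, ALDH18A1, GPT2 and CTH), 5 amino acid transporters or transporter subunits (SLC7A5, SLC3A2, SLC1A5, SLC38A2 and SLC7A1) and 8 cytosolic tRNA synthetases (GARS1, AARS1, WARS1, SARS1, MARS1, NARS1, EPRS1 and YARS1).

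The study profiled 5 sublines of VCaP, an established prostate cancer cell line, by bulk RNA sequencing in 15 libraries, 3 per subline, to follow the emergence of resistance to androgen deprivation and to androgen receptor antagonists. VCaP-T was kept for 7 months with 10 nM testosterone. VCaP-CT was derived from it over 10 more months at 0.1 nM by the protocol, although the sample characteristics give 10 nM for those months. VCaP-CT-ER, which the methods call VCaP-CT-ET, was VCaP-CT made resistant to 10 µM enzalutamide, VCaP-CT-BR was VCaP-CT grown with bicalutamide until insensitive, and VCaP-CT-BR-ER came from bicalutamide-insensitive cells that later grew despite enzalutamide. Enzalutamide after bicalutamide is also written in the label of VCaP-CT-BR. All were described in RPMI 1640 with DCC-FBS, L-glutamine and A/A. Each subline was derived once as far as the methods say, so the treatment, the months in culture and the derivation cannot be told apart, and p-values measure the spread between replicates of 1 derivation. In bulk RNA, a change in a few cells and a smaller change in all cells also cannot be told apart.

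Library totals ran from 33665716 to 46935279 counted fragments, and each library correlated best with its own subline. Of 11 markers of prostate luminal identity none was under 1 CPM on average in any subline, where CPM scales a count to the TMM-scaled total of its library. Their summed level was highest in VCaP-T, at 23300 to 24100 CPM against 10400 to 18300 CPM elsewhere, and KLK3 averaged 3560 CPM in VCaP-T and 33.2 CPM in VCaP-CT. Of 5 blood markers, LYZ alone was above 1 CPM in VCaP-T, at a mean of 52.7 CPM and 0.982 CPM in VCaP-CT, while CD3E was at 0 in all 15 libraries and PTPRC at 0 in 13. The 6 markers of endothelium and fibroblasts summed to 20.5 to 24.6 CPM in VCaP-T and 12 to 14.5 CPM in VCaP-CT, with CDH5 at 0 in 13 libraries. In the first step VWF and COL1A1 were lower on average, PECAM1 moved from 2.94 to 2.57 CPM, and PDGFRB was higher, at 3.355 against 0.808 CPM. In the sublines after VCaP-CT the sum of these markers was lower again, at 1.63 to 3.01 CPM. Marker levels thus moved in the first step of the series and, for this last group, in later ones. Their part in the changes of the 35 genes was not tested.

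The response element that ATF4 and C/EBP factors share has the core TGATGNAA, where N is any base. RefSeq promoter windows of 300 bases (250 before and 50 after the start, GRCh38.p14) were given for 28 of the 35 genes. The core lay on one strand or the other in 11 of the 28 (39.3%), against 4.46% of all 27305 genes of the promoter table and 2.86% of the 12263 that were also tested. No other motif was searched. A match is a run of letters and not a measured binding site. The 35 genes were picked for their place in the ATF4 pathway, so a higher share can come from that choice alone. It is no result of the expression data. Among the 23 other known ATF4 target genes with a window, 6 (26.1%) held the core. Of the other cytosolic tRNA synthetases 3 of 9 (33.3%) did. It was in 1 of 14 genes for the eIF2 kinases, eIF2, eIF2B and linked factors and in 1 of 14 mitochondrial synthetases. None of 13 ER folding genes of the ATF6 and XBP1 arms or of 5 cytosolic one-carbon and folate enzymes held it. The stretches of 7 members from 5 of the 6 roles are shown with the core in capitals, 5′ to 3′ on the strand of the gene. Where the capitals read TTNCATCA, the core lies on the opposite strand.
ATF3: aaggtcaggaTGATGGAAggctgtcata
CHAC1: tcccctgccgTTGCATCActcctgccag
ASNS: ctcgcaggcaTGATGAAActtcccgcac
SLC1A5: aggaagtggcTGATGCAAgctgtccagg
SLC3A2: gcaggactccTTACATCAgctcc
GARS1: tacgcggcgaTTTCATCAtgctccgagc
AARS1: tttctcgcagTTGCATCAgccaagttag

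The stretch of ATF3 lies at chr1:212565206-212565233 on the plus strand, before the first exon of the counting annotation, and that of AARS1 at chr16:70289676-70289703 on the minus strand, also outside the gene. The stretches of CHAC1 (chr15:40953252-40953279, plus), ASNS (chr7:97872459-97872486, minus), GARS1 (chr7:30594835-30594862, plus) and SLC3A2 (chr11:62881726-62881748, plus) lie in exons of that annotation, that of SLC3A2 after the RefSeq start, and the stretch of SLC1A5 (chr19:46784894-46784921, minus) lies at the edge of one. CEBPG, SLC7A1, MARS1 and NARS1 also held the core. By role it was in 4 of 7 synthetase windows and 3 of 5 transporter windows, and in none of the 3 windows of serine and one-carbon enzymes. The windows of SLC7A5, DDIT4 and DDIT3 held no such letters, nor did that of ATF4 itself. NUPR1, PSPH, SHMT2, ALDH1L2, PYCR1, GPT2 and YARS1 were not in the table.

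Compared per kilobase of exon in VCaP-T, ATF4 was the most abundant of the 35 genes, with a mean of 433 CPM per kilobase. SLC1A5, the glutamine and neutral amino acid transporter, followed at 321, then SHMT2, the mitochondrial serine hydroxymethyltransferase, at 234, and PSAT1, the aminotransferase of serine synthesis, at 224. At the low end were CTH, the last enzyme of transsulfuration, at 1.87, ASNS at 1.45, where fragments on the exon bases it shares with another gene were not counted, and ALDH1L2, a mitochondrial formyltetrahydrofolate dehydrogenase, at 0.103. ALDH1L2 had 147 counts in all 15 libraries together, so its values are the least precise of the list.

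VCaP-T had the highest mean of the 5 sublines for 32 of the 35 genes, against 30.4% of all genes tested (31 of 34 without ALDH1L2). VCaP-CT-BR had the lowest for 20 of the 35, against 18.5% of all genes (19 of 34 without ALDH1L2). The 3 genes whose highest mean was elsewhere were ALDH18A1 and NARS1, both highest in VCaP-CT-BR-ER (with VCaP-T overlapping for NARS1), and CTH, highest in VCaP-CT. Taken as a share of the VCaP-T mean, the median member stood at 30% in VCaP-CT and 35.1% in VCaP-CT-ER. The bicalutamide sublines were close, at 27.4% before enzalutamide and 30.3% after it. The median over all genes was 101 to 102% in each. These shares all use the same VCaP-T libraries and are given side by side for that reason.

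**Figure D1:**
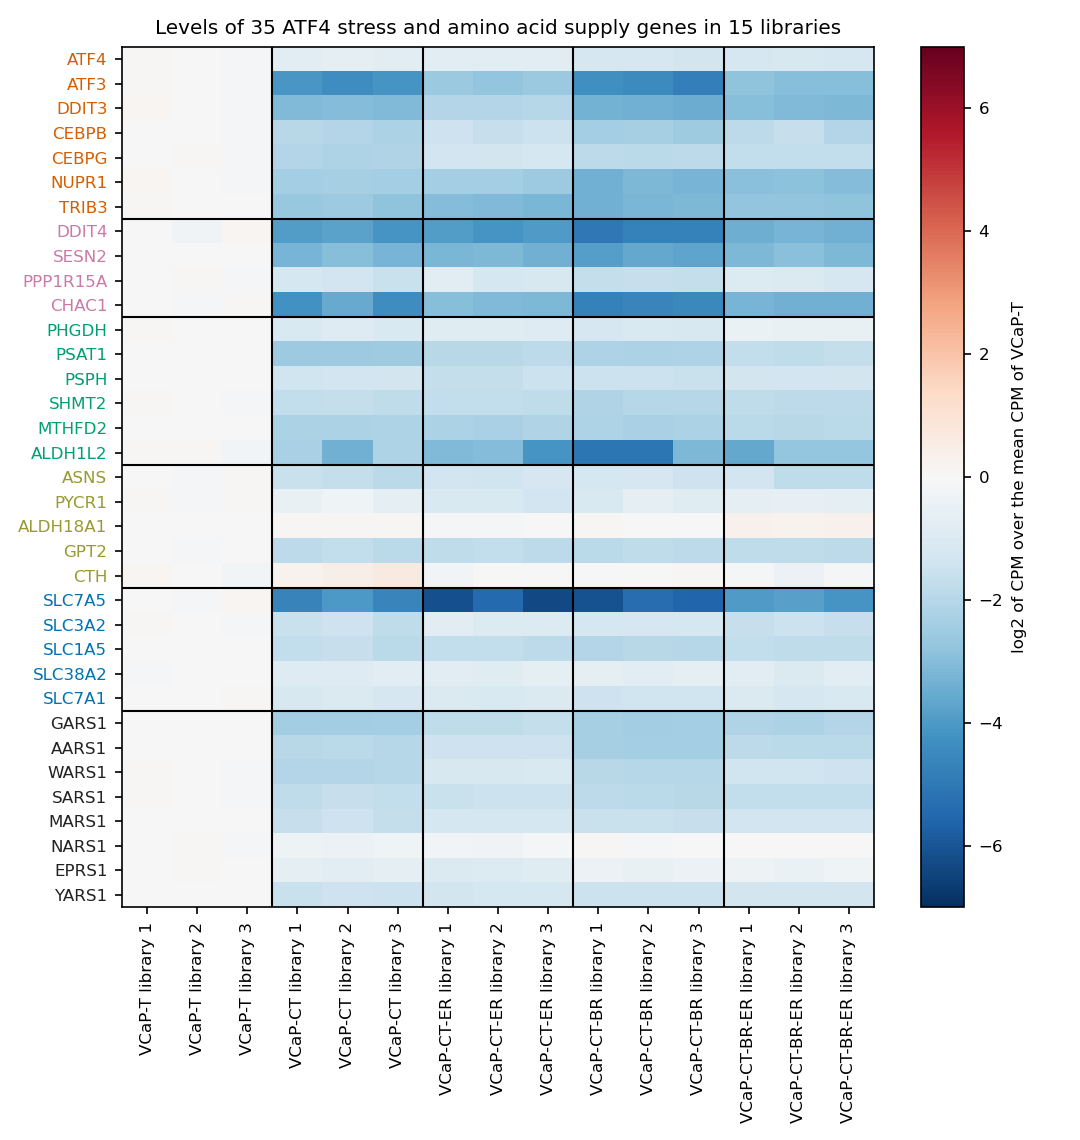
Heat map of the 35 genes (rows, coloured and divided by role) in the 15 libraries (columns, divided by subline). Colour gives the log2 of the CPM over the mean CPM of VCaP-T. All libraries after VCaP-T are below it for most genes, and the deepest blue is SLC7A5 in VCaP-CT-ER, at a mean of 1.65% of the VCaP-T level.

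The first step, VCaP-CT against VCaP-T, asks what long growth at low testosterone left different. Of the 35 genes, 33 fell, CTH rose, and ALDH18A1 did not pass the test. A gene is said to rise or fall where its adjusted p in edgeR's quasi-likelihood test was under 0.05, and 32.2% of all genes tested fell and 33.1% rose by that rule. A fall of at least 2-fold was seen for 28 of the 35, where 20.8% of all genes moved that far in either direction. Of the 19621 genes tested, 2398 fell that far. Without ALDH1L2, 32 of 34 fell and 27 of them by at least 2-fold. The median log2 fold change was -1.74 for the 35 genes and 0.03 for all genes. The libraries of VCaP-T and VCaP-CT did not overlap for any of the 35, with all of VCaP-CT below VCaP-T for 33 and above it for 2. The 33 include ALDH1L2, which had to differ from VCaP-T because of the count filter. All VCaP-CT libraries also lay below all VCaP-T libraries for 33.1% of the genes tested, and the share in the other direction was not taken.

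The regulators fell as a group, 7 of 7, with a median log2 fold change of -2.36. ATF4 itself fell least among them. Its level was 1142, 1090 and 1031 CPM in the VCaP-T libraries and 646, 670 and 616 CPM in VCaP-CT, a log2 fold change of -0.76 ± 0.048 (SE; adjusted p = 1.12e-11), or 1.69-fold lower. ATF3, a stress-induced repressor of the same bZIP family, fell most, from 26.9, 26.6 and 23.9 CPM to 1.51, 1.25 and 1.48 CPM, which is 18.2-fold lower (-4.18 ± 0.108, adjusted p = 3.5e-18). DDIT3, which encodes the proapoptotic factor CHOP, fell from 187, 172 and 161 CPM to 20.5, 21 and 20.6 CPM (-3.06 ± 0.064, adjusted p = 1.31e-19). Both fell by far more than the transcript of ATF4, and their groups lay well apart.

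TRIB3, a pseudokinase that feeds back on ATF4 and AKT, had 624, 563 and 566 CPM in VCaP-T and 92.2, 100 and 83.6 CPM in VCaP-CT (-2.67 ± 0.067, adjusted p = 2.02e-18). NUPR1, a small chromatin-associated stress protein, and the C/EBP partners CEBPG and CEBPB fell by 2.36, 2.12 and 2.07 on the log2 scale.

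All 4 effectors fell by more than 2-fold, with a median of -3.53. CHAC1, which degrades glutathione, fell from 52.3, 47.7 and 55.3 CPM to 2.78, 4.5 and 2.52 CPM (-3.98 ± 0.126, adjusted p = 1.04e-16). DDIT4, an inhibitor of mTORC1 also called REDD1, fell from 150, 125 and 162 CPM to 9.78, 11.1 and 8.3 CPM (-3.91 ± 0.105, adjusted p = 6.73e-18). SESN2, which signals leucine lack to mTORC1, fell from 68, 66.9 and 69.1 CPM to 7.04, 8.77 and 7.16 CPM (-3.15 ± 0.089, adjusted p = 1.38e-17). The mTORC1 inhibitors DDIT4 and SESN2 were thus 15-fold and 8.88-fold lower on average. PPP1R15A, the phosphatase subunit that reverses eIF2 phosphorylation, fell least of the 4, by 1.38 on the log2 scale.

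The 6 serine and one-carbon enzymes fell by 1.01 (PHGDH, the first enzyme of serine synthesis) to 2.52 (PSAT1) on the log2 scale, 5 of 5 without ALDH1L2. PSAT1 went from 509, 486 and 475 CPM to 83.4, 85.5 and 87 CPM (-2.52 ± 0.047, adjusted p = 2.48e-20). MTHFD2, the mitochondrial methylenetetrahydrofolate dehydrogenase, fell by 2.19, and SHMT2 by 1.72. ALDH1L2 had 0.936, 0.926 and 0.753 CPM in VCaP-T and 0.181, 0.0854 and 0.196 CPM in VCaP-CT, on 3 to 7 counts a library (-2.47 ± 0.356), which is given as a description because VCaP-T alone kept it among the genes tested. The cytosolic route was mixed. Of 7 cytosolic one-carbon and folate enzymes 3 rose and 3 fell. Leaving out genes whose average log2 CPM lay under 1, as was done for all genes named from other lists, SHMT1, the cytosolic serine hydroxymethyltransferase, fell most, by 0.69.

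Among the 5 other enzymes, GPT2, the mitochondrial alanine aminotransferase, fell most, by 1.81. The proline enzymes stood apart, with PYCR1 at -0.48 and ALDH18A1, which makes pyrroline-5-carboxylate from glutamate, at 0.07 (adjusted p = 0.14). CTH rose by 0.45 ± 0.116 (adjusted p = 0.0019). ASNS, asparagine synthetase, read 6.63, 5.99 and 6.71 CPM in VCaP-T and 2.17, 1.99 and 1.76 CPM in VCaP-CT (-1.71 ± 0.131, adjusted p = 2.77e-10). Those values are not the full level of ASNS. The coding bases of ASNS were all (100%) shared on the same strand with the exons of a further annotated gene, ENSG00000284707, along with 44.6% of its exon bases, and by its default the counting left out fragments that overlap 2 genes. Only the unshared remainder of ASNS was measured, with 1857 counts in 15 libraries.

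SLC7A5 fell most of all 35 genes. It encodes LAT1, the exchanger that brings in leucine and other large neutral amino acids, and it pairs with the heavy chain SLC3A2 at the cell surface. Its level was 54.1, 50.1 and 61.5 CPM in VCaP-T and 2.14, 3.42 and 2.26 CPM in VCaP-CT, or 21.1-fold lower (-4.40 ± 0.148, adjusted p = 2.59e-16). SLC3A2 fell by 1.58, so the chains of one transporter moved by unequal amounts. SLC1A5 fell by 1.74, SLC7A1, the cationic amino acid transporter, by 1.10, and SLC38A2, the glutamine and alanine transporter SNAT2, by 0.88.

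All 8 tRNA synthetases fell, from GARS1 at -2.43 to NARS1 at -0.36. GARS1, which charges glycine tRNA, went from 423, 438 and 418 CPM to 79.6, 77.6 and 80.8 CPM (-2.43 ± 0.049, adjusted p = 7.75e-20). Its neighbours on chromosome 7 were lower too, with a median of -0.98 over 22 genes within 2 Mb, of which 19 fell and the other 3 did not pass the test, and the part of that region in the value of GARS1 was not tested. WARS1 and AARS1, for tryptophan and alanine, fell by 2.02 and 1.95. The fall was not seen across tRNA charging as a whole. Of 11 other cytosolic synthetases 6 rose and 4 fell, from CARS1 at -1.60 to LARS1 at 0.58, with a median of 0.15, and of 16 mitochondrial synthetases 12 rose and 1 fell, with a median of 0.40.

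**Figure D2:**
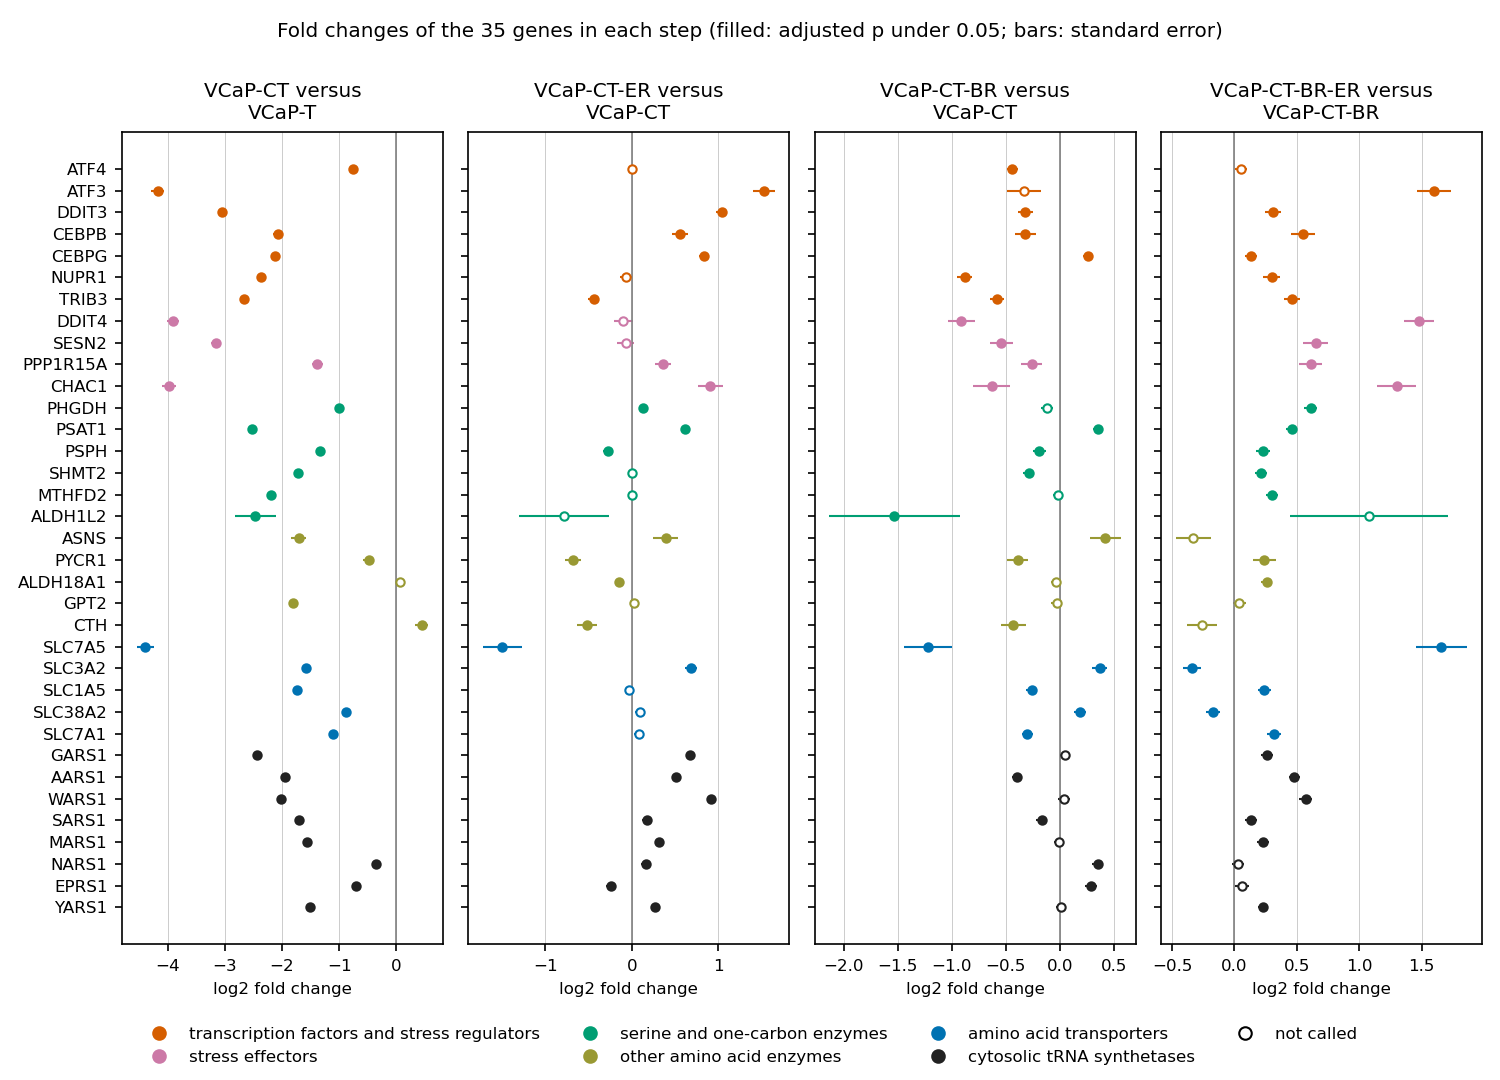
Log2 fold change (x axis, its range set for each panel) of the 35 genes (y axis, coloured by role) in each of the 4 steps, with the standard error as a bar and filled points where the adjusted p was under 0.05. In the first panel 33 filled points lie left of 0, and in the last panel 26 lie right of it.

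The wider pathway divided by branch in this first step. Of 27 other ATF4 target genes tested 21 fell and 2 rose, with a median of -1.70. GDF15, a secreted stress cytokine, fell by 5.62 ± 0.144 (adjusted p = 3.22e-18), from a mean of 1226 CPM to 25 CPM, and CBS, the first enzyme of transsulfuration, rose by 0.43. The eIF2 list holds 16 genes, for the eIF2 kinases, eIF2 and eIF2B and also PPP1R15B, GCN1, DELE1 and OMA1. Of these 8 fell and 5 rose with a median of -0.14. They lay between PPP1R15B, the constitutive eIF2 phosphatase subunit, at -1.11 and EIF2B5 at 0.97. Of 13 folding genes of the ATF6 and XBP1 arms 7 fell and 5 rose, from SEL1L at -1.04 to SDF2L1 at 1.07, with a median of -0.17. These lists are described by their counts and medians, and were not tested as lists.

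**Figure D3:**
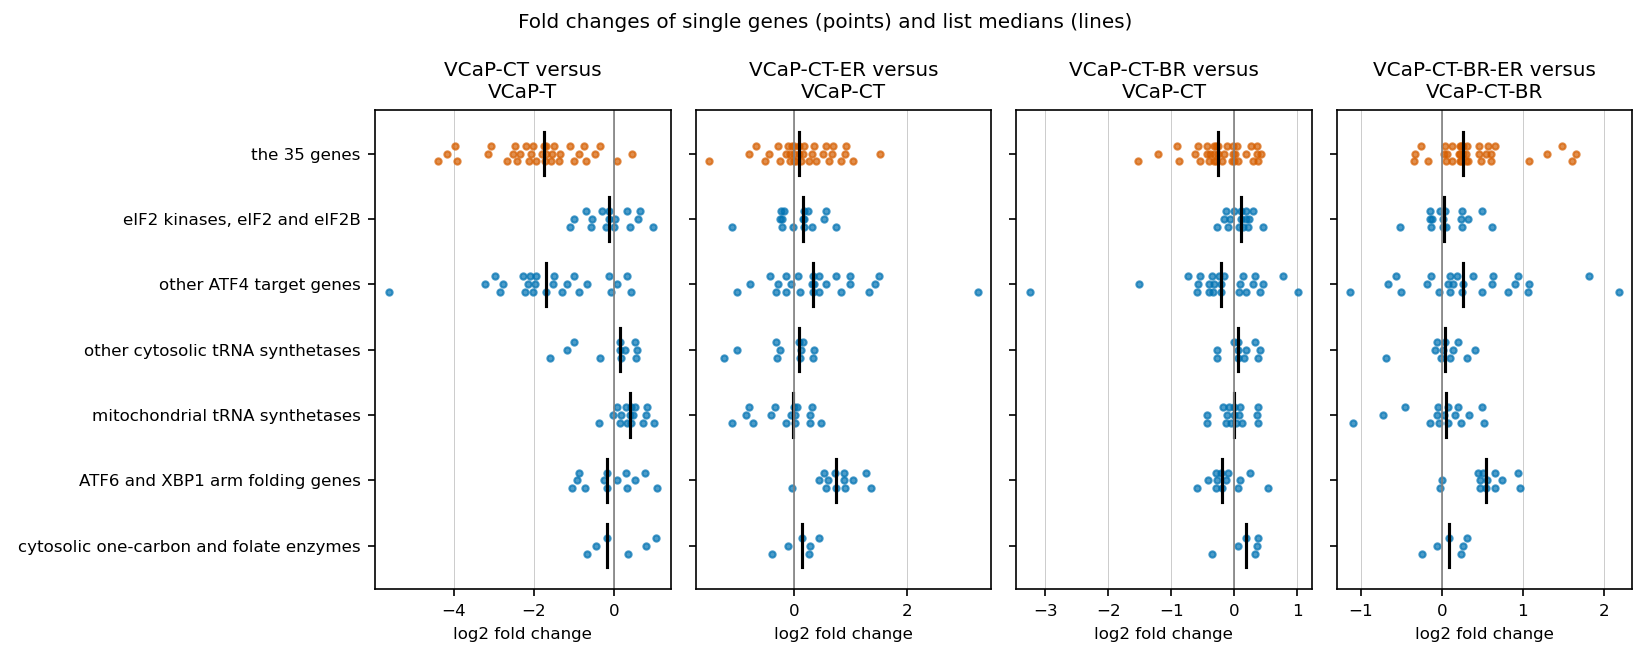
Log2 fold change (x axis, its range set for each panel) of single genes (points) in the 35 genes and in 6 other lists (y axis) for the 4 steps, with the median of each list as a vertical line. Of the other lists, 3 genes with an average log2 CPM under 1 are not drawn but count in the medians. In the first panel the 35 genes and the other ATF4 targets have medians of -1.74 and -1.70, while those of the other lists lie between -0.18 and 0.40.

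The step from VCaP-CT to VCaP-CT-ER asks what came with resistance to enzalutamide. Of the 35 genes 17 rose, 7 fell and 11 did not pass the test, where 29.6% of all genes rose and 31.2% fell. The median was 0.09 for the 35 genes and -0.02 for all genes. A change of at least 2-fold was reached by ATF3 and DDIT3 upward and SLC7A5 downward, where 17.6% of all genes moved that far. ATF4 did not pass the test, with 650, 643 and 637 CPM against 646, 670 and 616 CPM in VCaP-CT (log2 fold change -0.00 ± 0.047, adjusted p = 0.975).

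Among the regulators 4 rose and TRIB3 fell, by 0.44. ATF3 stood at 4.2, 3.78 and 4.3 CPM in VCaP-CT-ER, all above the VCaP-CT libraries, and was 2.89-fold higher (1.53 ± 0.125, adjusted p = 9.74e-10). DDIT3 stood at 41.1, 42.5 and 43.8 CPM, 2.05-fold higher (1.04 ± 0.063, adjusted p = 8.59e-12). CEBPG and CEBPB rose by 0.83 and 0.56. Each of these remained far below VCaP-T, where ATF3 had at least 23.9 CPM and DDIT3 at least 161 CPM.

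Of the effectors, CHAC1 rose by 0.91 and PPP1R15A by 0.36, while DDIT4 and SESN2 did not pass the test at -0.10 and -0.07. PSAT1 rose by 0.62 and PSPH, the phosphatase that completes serine synthesis, fell by 0.28. PHGDH was called at 0.13 (adjusted p = 0.0324), although its groups overlapped, and was not called without replicate 1 or 2 of VCaP-CT-ER or replicate 1 or 3 of VCaP-CT (0.11 to 0.14, adjusted p from 0.0601 to 0.104). SHMT2 and MTHFD2 were at 0.00. In the other enzymes ASNS rose by 0.39 ± 0.144 (adjusted p = 0.0236), reading 2.51, 2.42 and 2.86 CPM. Without replicate 3 of VCaP-CT-ER or of VCaP-CT it was not called (0.33 to 0.34, adjusted p from 0.0771 to 0.0861). PYCR1, CTH and ALDH18A1 fell by 0.68, 0.52 and 0.15.

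The chains of the LAT1 transporter moved in opposite directions. SLC7A5 fell to 0.787, 1.25 and 0.696 CPM, from at least 2.14 CPM in VCaP-CT (-1.50 ± 0.224, adjusted p = 6.32e-06), and SLC3A2 rose by 0.69 ± 0.069 (adjusted p = 2.3e-08). SLC1A5, SLC38A2 and SLC7A1 did not pass the test, at -0.03, 0.09 and 0.08. In VCaP-CT-ER, SLC7A5 thus had its lowest mean of the 5 sublines, although the libraries of VCaP-CT-BR overlapped with it.

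Of the 8 synthetases 7 rose, from WARS1 at 0.92 to NARS1 at 0.16, and EPRS1, the fused glutamate and proline synthetase, fell by 0.24. Of the other cytosolic synthetases 3 of 11 rose and 5 fell, from HARS1 at -1.24 to IARS1 at 0.35, and of the mitochondrial ones 4 of 16 rose and 7 fell, from HARS2 at -1.09 to MARS2 at 0.48. HARS1 and HARS2 encode the cytosolic and mitochondrial histidine enzymes. Neighbouring genes were looked at for the 35 genes only, so a regional part in the values of genes from the other lists was not tested.

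Outside the list, 15 of 27 other ATF4 targets rose and 6 fell in this step, from VLDLR, a lipoprotein receptor, at 3.25 ± 0.064 (adjusted p = 4.56e-20) to VEGFA, an angiogenic growth factor, which fell from a mean of 85.5 to 42.6 CPM. The folding genes moved one way, with 12 of 13 higher and the other not called, led by MANF, an ER-resident stress factor, at 1.37 ± 0.062 (adjusted p = 5.79e-14). EIF2AK3, the ER kinase PERK, rose by 0.75, the highest of the eIF2 list, of which 9 of 16 rose and 6 fell, and DELE1, the mitochondrial stress messenger, fell most, by 1.10. Of the cytosolic one-carbon genes 4 of 7 rose and 1 fell.

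The step from VCaP-CT to VCaP-CT-BR covers growth in bicalutamide. Of the 35 genes 19 fell, 7 rose and 9 did not pass the test, where 27% of all genes fell and 26.1% rose (18 fell without ALDH1L2). The median was -0.26 against -0.02 for all genes. The changes were small, since 2 genes, SLC7A5 and ALDH1L2, fell by at least 2-fold, where 9.96% of all genes moved that far in either direction. Of the 19621 genes tested, 1375 fell that far.

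ATF4 fell in this step to 488, 488 and 451 CPM (-0.44 ± 0.048, adjusted p = 1.42e-07), with no overlap with VCaP-CT. Its neighbours fell as well, with a median of -0.30 over 90 genes within 2 Mb, of which 44 fell and 6 rose. TRIB3 fell by 0.58 and its 31 neighbours had a median of -0.50, with 17 lower. The part of these regions in the values was not tested. NUPR1 fell by 0.88 and CEBPG rose by 0.26. CEBPB fell by 0.32, but was not called without replicate 1 of VCaP-CT (-0.26, adjusted p = 0.0653). ATF3, at 1.3, 1.15 and 0.942 CPM, overlapped with VCaP-CT (-0.33, adjusted p = 0.0991). All 4 effectors fell, from DDIT4 at -0.91 to PPP1R15A at -0.26. CHAC1 fell by 0.63, but without replicate 2 of VCaP-CT, whose 4.5 CPM was the highest of its group, it was at -0.31 (adjusted p = 0.0689). PPP1R15A was not called without replicate 1 or 3 of VCaP-CT-BR or replicate 1 or 2 of VCaP-CT (-0.25 to -0.18, adjusted p from 0.0691 to 0.183).

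Of the serine enzymes PSAT1 rose by 0.35, while PSPH and SHMT2 fell by 0.19 and 0.29. PHGDH was not called at -0.12, but was without replicate 2 of VCaP-CT-BR or replicate 3 of VCaP-CT (-0.17 to -0.15, adjusted p from 0.0155 to 0.0374). ALDH1L2 was called at -1.53 ± 0.603 (adjusted p = 0.0381) on 0.0259, 0.0262 and 0.0992 CPM, or 1 to 4 counts a library, and its groups overlapped. The call was lost without replicate 1 or 2 of VCaP-CT-BR or replicate 1 or 3 of VCaP-CT, with adjusted p between 0.102 and 0.137, and in DESeq2 (adjusted p = 0.0721). ASNS rose by 0.42 ± 0.146 (adjusted p = 0.02), with 2.72, 2.83 and 2.38 CPM, and was not called without replicate 1 or 2 of VCaP-CT-BR or replicate 3 of VCaP-CT (0.33 to 0.39, adjusted p from 0.0602 to 0.0951). PYCR1 and CTH fell by 0.39 and 0.43.

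SLC7A5 fell to 0.804, 1.36 and 1.19 CPM (-1.22 ± 0.223, adjusted p = 9.74e-05), and SLC3A2 rose by 0.37. SLC38A2 rose by 0.19, whereas SLC7A1 and SLC1A5 fell by 0.30 and 0.26. The heavy chain and the light chain of LAT1 lay on opposite sides of VCaP-CT. Of the synthetases NARS1 and EPRS1 rose by 0.35 and 0.29, AARS1 and SARS1 fell by 0.40 and 0.17, and the other 4 lay between -0.01 and 0.05 and did not pass the test. VCaP-CT-ER and VCaP-CT-BR share the VCaP-CT libraries, so the likeness of their steps was not counted.

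Of the other ATF4 targets 15 of 27 fell and 7 rose, from GDF15 at -3.25 ± 0.178 (adjusted p = 5.46e-12) to SLC7A11, the cystine exchanger xCT, at 1.01 ± 0.089 (adjusted p = 6.62e-09). The folding genes had 7 of 13 lower and 2 higher, from SDF2L1 at -0.59 to DNAJB9 at 0.53. In the eIF2 list 7 of 16 rose and 3 fell, in the other cytosolic synthetases 5 of 11 rose and 1 fell, in the mitochondrial synthetases 3 of 16 rose and 3 fell, and in the cytosolic one-carbon list 4 of 7 rose and 2 fell.

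**Figure D4:**
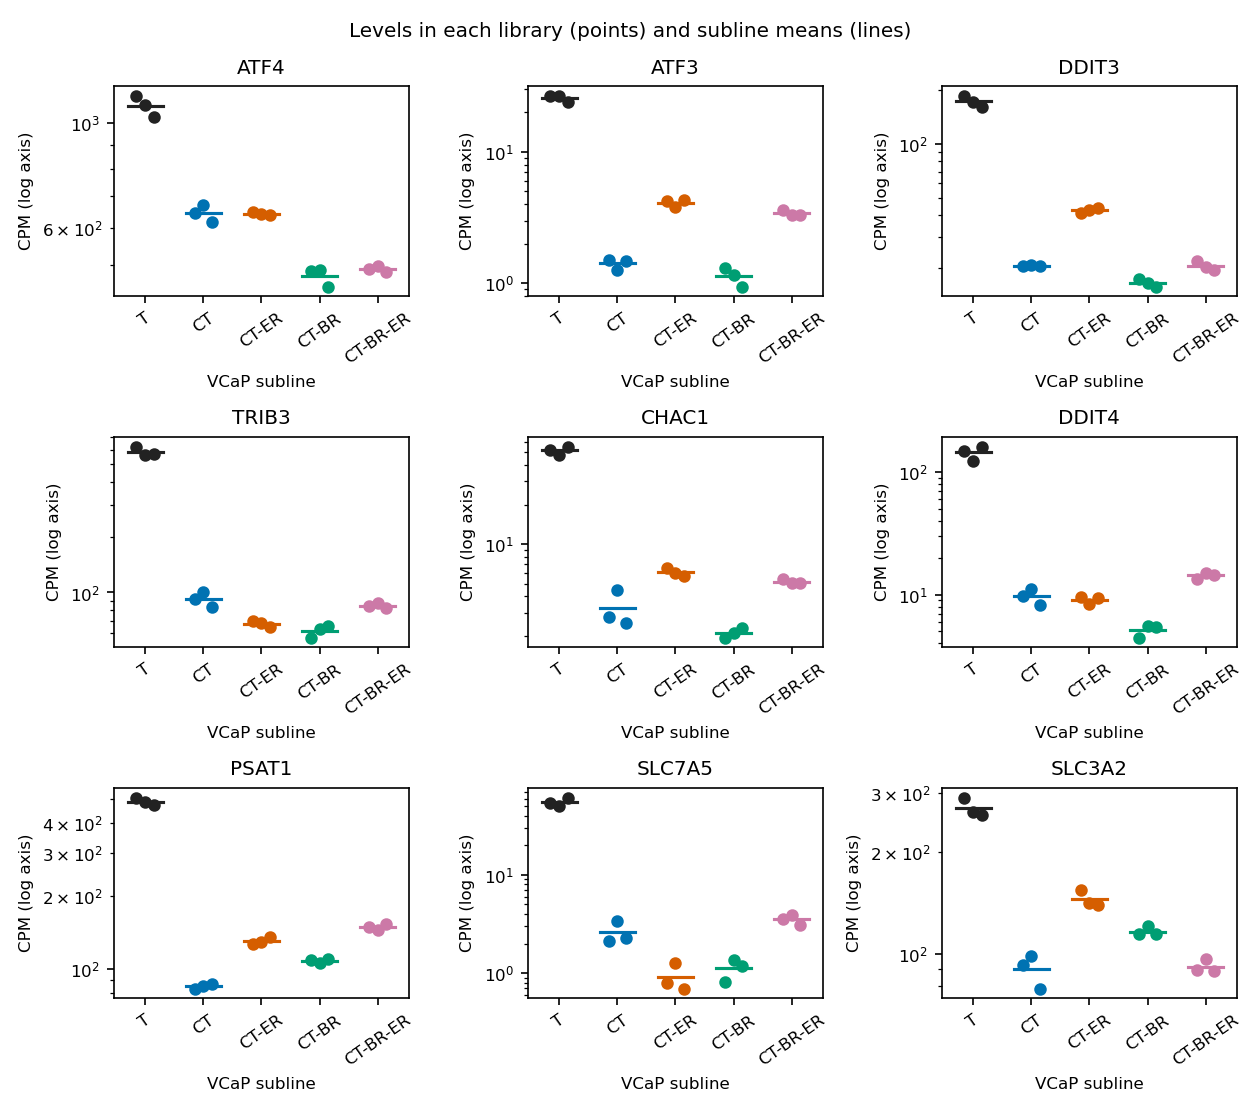
CPM on a log axis (y, its range set for each panel) of 9 of the 35 genes in each library (points) of the 5 sublines (x axis), with the subline mean as a line. ATF4 differs by -0.00 ± 0.047 on the log2 scale between VCaP-CT and VCaP-CT-ER, while ATF3, DDIT3 and CHAC1 are higher in VCaP-CT-ER and SLC7A5 is lower.

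The last step, VCaP-CT-BR-ER against VCaP-CT-BR, covers enzalutamide after bicalutamide. The paper describes VCaP-CT-BR as grown with bicalutamide, and VCaP-CT-BR-ER as given enzalutamide after that. The label of VCaP-CT-BR, which also names enzalutamide, differs from that description, and the description is followed here. Of the 35 genes 26 rose, 2 fell and 7 did not pass the test, where 21.2% of all genes rose and 21.7% fell. The median was 0.26, against 0.00 for all genes. A rise of at least 2-fold was reached by SLC7A5, ATF3, DDIT4 and CHAC1, where 7.98% of all genes moved that far in either direction. Of the 19621 genes tested, 826 rose that far.

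SLC7A5 rose to 3.57, 3.9 and 3.12 CPM, each above the 0.804 to 1.36 CPM of VCaP-CT-BR (1.66 ± 0.208, adjusted p = 1.44e-06). ATF3 rose to 3.62, 3.31 and 3.3 CPM and was 3.02-fold higher (adjusted p = 3.94e-09). DDIT4 rose from 4.46, 5.57 and 5.4 CPM to 13.5, 15.1 and 14.4 CPM (1.48 ± 0.117, adjusted p = 1.7e-09). CHAC1 rose from 1.94, 2.09 and 2.28 CPM to 5.44, 5.07 and 5.06 CPM (1.30 ± 0.155, adjusted p = 6.98e-07). The 4 genes that fell most from VCaP-T to VCaP-CT, SLC7A5, ATF3, CHAC1 and DDIT4, were the 4 that rose by more than 2-fold here, and none of them passed 15.1 CPM, or 13.2% of its VCaP-T mean.

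ATF4 did not pass the test, at 491, 499 and 484 CPM (0.05 ± 0.048, adjusted p = 0.457), while the other 6 regulators rose, CEBPG least at 0.13 and ATF3 most. CEBPG was not called without replicate 1 or 3 of VCaP-CT-BR-ER or replicate 2 or 3 of VCaP-CT-BR (0.12 to 0.14, adjusted p from 0.0594 to 0.1). All 4 effectors rose, with SESN2 at 0.65 and PPP1R15A at 0.61. PHGDH, PSAT1, MTHFD2, PSPH and SHMT2 rose by 0.61, 0.46, 0.30, 0.23 and 0.21, and ALDH1L2 did not pass the test at 1.08 (adjusted p = 0.18). ALDH18A1 and PYCR1 rose by 0.26 and 0.24, PYCR1 not without replicate 1, 2 or 3 of VCaP-CT-BR-ER or replicate 1 or 3 of VCaP-CT-BR (0.16 to 0.27, adjusted p from 0.0568 to 0.212). ASNS read 2.55, 1.87 and 1.86 CPM (-0.33, adjusted p = 0.0688), and without the first of these libraries -0.49 (adjusted p = 0.0134). GPT2 and CTH also did not pass the test, at 0.04 and -0.26.

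SLC3A2 and SLC38A2 fell, by 0.34 and 0.17, and were the only 2 of the 35 genes that fell in edgeR in this step. SLC7A1 and SLC1A5 rose by 0.32 and 0.24. Of the synthetases 6 rose, from WARS1 at 0.57 to SARS1 at 0.13, and NARS1 and EPRS1 did not pass the test at 0.03 and 0.06. The call of SLC38A2 was lost without replicate 2 of VCaP-CT-BR-ER or replicate 1 or 3 of VCaP-CT-BR, at -0.16 to -0.10 (adjusted p from 0.056 to 0.155). That of SARS1 was lost without replicate 1 or 3 of VCaP-CT-BR-ER or replicate 2 or 3 of VCaP-CT-BR, at 0.11 to 0.14 (adjusted p from 0.0647 to 0.13).

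Of the other ATF4 targets 14 of 27 rose and 5 fell in this step, from VEGFA at -1.13 to GDF15 at 2.18 ± 0.19 (adjusted p = 7.33e-09). Of the folding genes 11 of 13 rose and the other 2 did not pass the test, with MANF again highest at 0.96. The eIF2 list had 6 of 16 higher and 2 lower, the other cytosolic synthetases 3 of 11 higher and 1 lower, the mitochondrial synthetases 5 of 16 higher and 3 lower, and the cytosolic one-carbon list 3 of 7 higher and 1 lower.

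The pair of enzalutamide steps share no library, so their calls can be set side by side. ATF3, DDIT3, CEBPB, CEBPG, PPP1R15A, CHAC1, PHGDH, PSAT1, GARS1, AARS1, WARS1, SARS1, MARS1 and YARS1, 14 of the 35, rose in both, where 10.2% of all genes tested did. SLC3A2 and SLC38A2, the 2 that fell after bicalutamide, rose or did not pass the test in the other step, while 10.5% of all genes fell in both. TRIB3, PSPH, PYCR1, ALDH18A1 and SLC7A5 fell in the step from VCaP-CT and rose in the step from VCaP-CT-BR. ATF4, ALDH1L2 and GPT2 passed the test in neither.

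The difference between the steps was tested by itself, and it too follows the paper's description of VCaP-CT-BR as grown with bicalutamide. It passed for 22 of the 35 genes, in a comparison in which 49.7% of all genes passed. SLC7A5 differed most, by 3.16 ± 0.306 in favour of the step after bicalutamide (adjusted p = 3e-08), and DDIT4 by 1.58 ± 0.163 (adjusted p = 7.8e-08). SLC3A2 differed the other way, by -1.03 ± 0.097 (adjusted p = 2.1e-08). The difference was not called for ATF3 (0.07 ± 0.19, adjusted p = 0.8), CHAC1 (0.39 ± 0.213, adjusted p = 0.13) or ATF4 (0.05 ± 0.067, adjusted p = 0.572), which does not show that they responded alike. Without replicate 3 of VCaP-CT, CHAC1 was called at 0.54 (adjusted p = 0.0286). The calls of PSAT1, SHMT2 and SLC7A1 were lost in at least 1 fit that left out a library. SHMT2 was lost without replicate 1 of VCaP-CT-BR or replicate 2 of VCaP-CT (adjusted p at most 0.0591), SLC7A1 without replicate 2 of VCaP-CT (adjusted p = 0.0553), and PSAT1 in 7 such fits (adjusted p from 0.0516 to 0.0931).

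**Figure D5:**
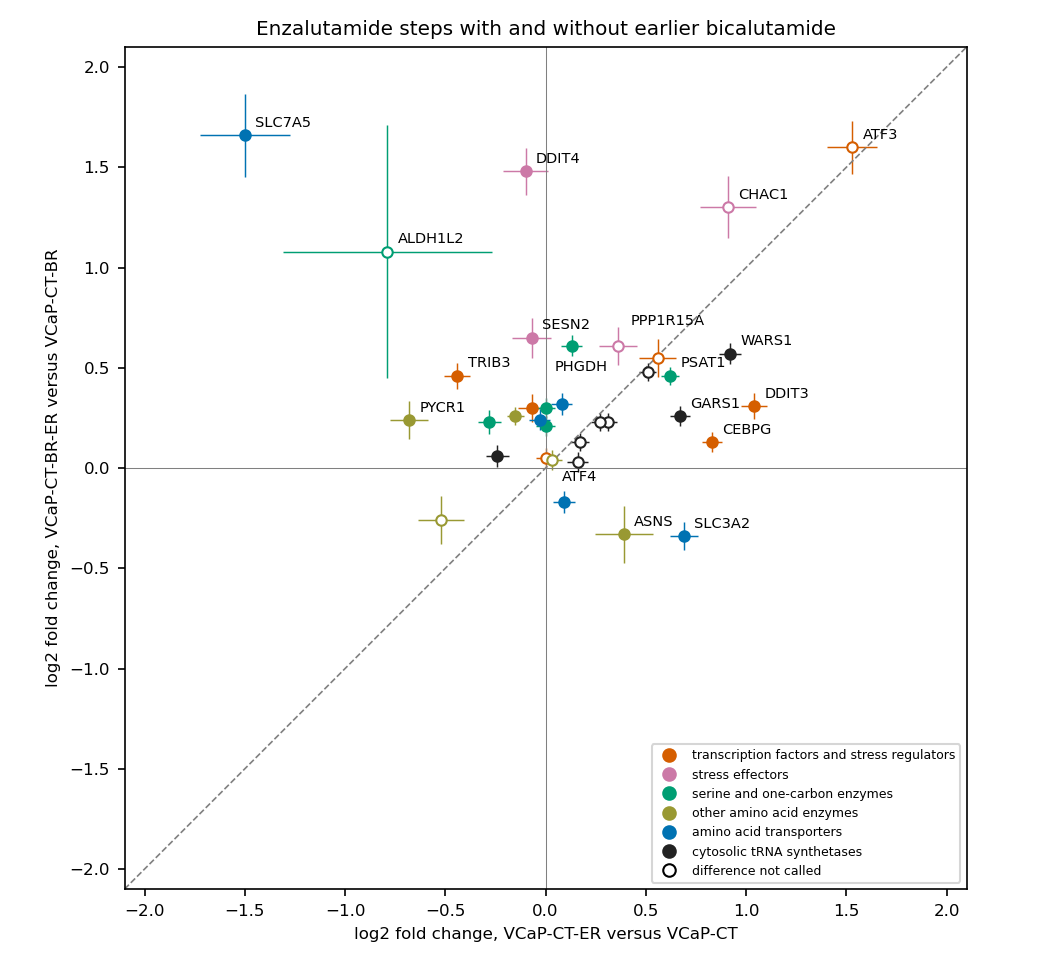
Log2 fold change of the 35 genes in the step from VCaP-CT to VCaP-CT-ER (x axis) and in the step after bicalutamide, VCaP-CT-BR-ER against VCaP-CT-BR (y axis), with standard errors as bars, colours by role, and filled points where the difference passed the test. The dashed line marks equal change. ATF3 lies near it, 2.89-fold and 3.02-fold higher, while SLC7A5 lies at -1.50 and 1.66.

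Several of the genes share exon bases with others, and their counts can be split or cut by that. DDIT3 shares exon bases with MARS1 and MBD6 on chromosome 12 and the counting ignored strand, so fragments on 24.5% of the coding bases of DDIT3 could not be assigned. The same holds for 38.9% of those of DDIT4, 22.3% of those of CEBPB, 10.2% of those of SLC1A5, 8.3% of those of MTHFD2 and 7.6% of those of SLC7A5. PSPH has a near copy, PSPHP1, with 4007 counts beside the 18376 of PSPH. The overlaps are the same in all libraries, and their part in the fold changes was not tested.

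Sublines of a cancer line can differ in copy number, so the genes around each member are given as well. Within 2 Mb, the median fold change of the neighbours in VCaP-CT against VCaP-T lay between -0.53 (ASNS, 37 neighbours) and 0.50 (SLC7A5, 43 neighbours) for 34 of the 35 genes, with GARS1 outside that range at -0.98. Around SLC7A5, the gene with the largest fall, 24 neighbours rose and 5 fell. In the later steps the changes of the members were smaller, and for some the neighbours moved nearly as far. A neighbour median of the same sign and at least 0.5 of the change of the member was found for 2 of 24 called members in VCaP-CT-ER against VCaP-CT, SARS1 and EPRS1. It was found for 8 of 26 in VCaP-CT-BR against VCaP-CT, namely ATF4, DDIT3, TRIB3, PPP1R15A, SHMT2, PYCR1, SLC1A5 and EPRS1. PYCR1 fell by 0.39 there beside a median of -0.31 over 104 neighbours, of which 50 fell and 3 rose. In the last step it was found for 4 of 28, DDIT3, SHMT2, PYCR1 and MARS1. SHMT2, DDIT3 and MARS1 lie close together on chromosome 12.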

How the data were processed

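RNA from 15 libraries was sequenced on an HiSeq 3000. The authors aligned reads to GRCh38 with STAR 2.5.4b and deposited raw counts of fragments per gene from featureCounts 1.6.2, paired and without strand, on GENCODE release 28. By default that tool leaves out fragments that overlap more than 1 gene. No per-sample column was left unused. Symbols came from GENCODE by Ensembl identifier (57754 of 58381).

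Counts were tested with edgeR 4.0.16 in R 4.3.3: filterByExpr (minimum count 10), TMM scaling, a coefficient for each subline fitted on the 15 libraries together, the quasi-likelihood F test, and p-values adjusted by Benjamini-Hochberg over 19621 genes with a threshold of 0.05. The fit was tested on simulated data. CPM used the TMM-scaled totals. Molecular identifiers are not mentioned. The members and lists were chosen with earlier results of these data known. Library values are given for ATF4, ASNS and members past the threshold with at least 2-fold change and no overlap, up to 10 a step, with others by group and the extremes of each group. From the other lists, the genes that rose or fell most in a step at an average log2 CPM of at least 1 were named. Library values of ALDH1L2 and ATF3 in VCaP-CT-BR, which fall outside that rule, were chosen after they were seen. Neighbours start within 2 Mb. Alternatives were DESeq2 1.42.0, upper quartile and plain scaling, 2 other filters, fits of only the sublines compared, a 1.5-fold limit, a replicate block, and fits without each library in turn.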

Additional observations from a re-analysis of the deposited data

Results flagged for a closer look

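The change of 22 members under enzalutamide differed between the starting points VCaP-CT and VCaP-CT-BR in a test of the difference itself (edgeR, adjusted p under 0.05). The values are the log2 fold change of the step after bicalutamide minus that of the step from VCaP-CT. The 14 with a higher value after bicalutamide were SLC7A5 (3.16), DDIT4 (1.58), PYCR1 (0.92), TRIB3 (0.90), SESN2 (0.72), PSPH (0.51), PHGDH (0.47), ALDH18A1 (0.41), NUPR1 (0.37), MTHFD2 (0.30), EPRS1 (0.30), SLC1A5 (0.27), SLC7A1 (0.25) and SHMT2 (0.21). The 8 with a lower value were SLC3A2 (-1.03), DDIT3 (-0.72), ASNS (-0.72), CEBPG (-0.70), GARS1 (-0.41), WARS1 (-0.36), SLC38A2 (-0.26) and PSAT1 (-0.16). For SLC7A5, TRIB3, PSPH, PYCR1, ALDH18A1 and SLC3A2 both steps passed the test with opposite signs. As 49.7% of all genes passed the same test, the count of 22 is not particular to these genes.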

How the results depend on the processing

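No member reversed its direction among called values under any alternative. The counts of members called were within 1.5 times of those reported under DESeq2, plain scaling, the other filters, fits of only the sublines compared and the replicate block, and under upper quartile scaling except that 2 rather than 1 rose in VCaP-CT against VCaP-T, with ALDH18A1 added at 0.11. With at least 10 counts in every library ALDH1L2 was not among the genes tested. Requiring 1.5-fold change as well lowered several counts, since it adds a limit on the estimated fold change to the calls of the same test. It left 0 members higher in VCaP-CT against VCaP-T, 8 higher and 2 lower in VCaP-CT-ER, 0 higher and 5 lower in VCaP-CT-BR, 7 higher and 0 lower in VCaP-CT-BR-ER, and 9 for the difference between the enzalutamide steps. With each library left out in turn, the members lower in VCaP-CT-BR-ER numbered 1 to 3 against 2, with 1 without replicate 2 of VCaP-CT-BR-ER or replicate 1 or 3 of VCaP-CT-BR. The other ranges were 1 to 1 and 33 to 33 (VCaP-CT, higher and lower), 15 to 18 and 7 to 7 (VCaP-CT-ER), 6 to 7 and 16 to 19 (VCaP-CT-BR), 23 to 25 higher (VCaP-CT-BR-ER) and 20 to 23 (the difference). Of 175 tests of members, 14 calls were lost and 7 gained in at least 1 of these fits, the gains including the difference between the enzalutamide steps for PPP1R15A, MARS1 and ALDH1L2 and the change of SLC7A1 in VCaP-CT-ER (adjusted p = 0.0499). Same-numbered replicates did not deviate together over all genes (correlations from -0.1 to 0.095 over 19621 genes). Such correlations cannot exclude a pairing that touches few genes. With the replicate block the counts were 1 and 33, 17 and 7, 7 and 18, 26 and 2, and 22, and it ended 1 call, that of ALDH1L2 in VCaP-CT-BR (adjusted p = 0.0518). ASNS, with only its unshared bases counted, and ALDH1L2, with 147 counts, are limited most by depth.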
